A study of Mus musculus with 48 samples.

Results

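The integrated stress response is the pathway by which phosphorylation of the translation initiation factor eIF2 lowers general protein synthesis and favours translation of the mRNA for ATF4, a bZIP transcription factor. ATF4 and its partners then raise genes for amino acid synthesis and import, for glutathione metabolism and for feedback on the pathway itself. Upf1 is the helicase at the centre of nonsense-mediated mRNA decay, which removes mRNAs whose ribosomes stop early, and the mRNAs of Atf4, Ddit3 and Atf3 have been described as substrates of that decay because of their upstream reading frames or their structure. The question asked here was whether the genes of this stress programme were higher in cells labelled Upf1 knockout, and how their RNAs were recovered with Tnrc6a, the mouse GW182 protein.

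The 10 genes described were chosen by name, with earlier results of these data known, and are all in the table of 20171 genes. They are the transcription factors Atf4, Ddit3 (which encodes CHOP) and Atf3, the regulators Trib3, Sesn2 and Chac1, the enzymes Asns, Psat1 and Phgdh, and the cystine transporter gene Slc7a11. All 10 were tested in each of the 9 comparisons. Each library is an RNA sample of mouse embryonic stem cells of strain 129S6/SvEvTac, and every group, controls included, carries a GFP reporter named GFP_5xT71BS. The growth protocol in the labels also gives a stably transfected FLAG-Cas9 with blasticidin resistance for the cells. The 4 genotypes were an untagged control without further alleles, HA-AVI-Tnrc6a (a tag on Tnrc6a, called HA-Tnrc6a below), HA-AVI-Tnrc6a with Ago2-/-, and HA-AVI-Tnrc6a with Upf1-/-. Each was sampled as total lysate (input) and as material recovered on HA beads (IP) in experiments labelled 3 and 4, with 3 libraries per group and 48 in all. The count columns are numbered within a genotype and name no experiment, so taking the first 3 as experiment 3 and the later 3 as experiment 4 is inferred from the numbering, and values averaged over both do not rest on which is which. The labels give no number of clones per genotype, so a difference between genotypes cannot be told apart from one between clones. Cells were grown in triplicate dishes, and p-values measure the spread between these.

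Library totals were 15383953 to 19595405 counts for inputs and 11471544 to 18344233 for IPs of experiment 3, and 26458831 to 37179105 and 25724085 to 73845953 in experiment 4. Ago2 mRNA was 2.31-fold lower in Ago2 knockout inputs than in HA-Tnrc6a inputs, whereas Upf1 mRNA was 1.49-fold higher, not lower, in inputs labelled Upf1 knockout. Upf1 overlaps Gdf1 and Cers1 in the reference annotation, and the part of this overlap in its count was not tested. Each direction below refers to libraries labelled Upf1 knockout. The 10 embryonic stem cell markers examined (Pou5f1, Nanog and others) summed to between 4080 and 5557 CPM per kilobase of gene length in the 24 inputs, CPM being a count over its TMM-scaled library total. Fibroblast markers, of which 3 of 7 are in the table, summed to 6.49 to 11.7, with Col1a2 at 0 in 2 libraries, and 6 primitive endoderm markers summed to 1.59 to 11.7, with Foxa2 at 0 in 2 libraries. The primitive endoderm sum differed between groups, at 6.43 to 7.10 in HA-Tnrc6a inputs of both experiments, 1.59 to 2.06 in Ago2 knockout inputs, 2.64 to 3.22 (experiment 3) and 10.5 to 11.7 (experiment 4) in those labelled Upf1 knockout, and 2.44 to 3.21 and 7.74 to 7.95 in untagged inputs. Its part in the results below was not tested. HA-Tnrc6a input 3 of experiment 3 (each library being numbered by its replicate) stood apart from inputs 1 and 2 (chi-square per degree of freedom 34.3 and 28.9, against a median of 6.83 over 48 replicate pairs). Among the IPs, replicate 1 of those labelled Upf1 knockout in experiment 4 (36.2 and 26.3, against 4.69 between the others), HA-Tnrc6a IP 1 of experiment 4 (up to 22.5, against 7.84) and untagged IP 1 of experiment 3 (29.9 and 19.2, against 17.1) also stood apart, and HA-Tnrc6a IPs 1 and 3 of experiment 3 differed by 27.4. Untagged IP 2 of experiment 4 (19.7 and 14.8, against 5.73) and untagged input 1 of experiment 3 (10.7 and 9.48, against 1.96) stood apart as well. Calls on the 10 genes that are gained or lost without one of these libraries are given beside the result.

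Promoter sequences are shown first because ATF4 with a C/EBP partner binds a composite element that was searched for as TGATGNAA on both strands (TTNCATCA on the opposite one). RefSeq promoters of GRCm38.p6, which span 250 bases before the annotated start to 50 bases from it, matched all 10 genes by symbol. A match was found for 5 of the 10 genes, against 3.97% of all 32851 promoters of the same 300 bases. The matches are shown in capitals, 5′ to 3′ on the strand of the gene, with positions counted from 1 at the start. Atf3, Asns and Chac1 are given from position -200 to -1.
Atf3, chr1:191183334-191183533, minus strand: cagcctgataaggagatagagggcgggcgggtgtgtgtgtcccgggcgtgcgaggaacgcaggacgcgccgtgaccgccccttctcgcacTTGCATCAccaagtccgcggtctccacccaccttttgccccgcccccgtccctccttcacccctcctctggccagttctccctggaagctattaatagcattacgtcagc
Asns, chr6:7693210-7693409, minus strand: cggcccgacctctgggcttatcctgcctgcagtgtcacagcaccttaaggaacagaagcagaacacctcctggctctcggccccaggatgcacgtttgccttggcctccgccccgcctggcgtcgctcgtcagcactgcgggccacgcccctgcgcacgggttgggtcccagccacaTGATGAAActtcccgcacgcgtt
Chac1, chr2:119351042-119351241, plus strand: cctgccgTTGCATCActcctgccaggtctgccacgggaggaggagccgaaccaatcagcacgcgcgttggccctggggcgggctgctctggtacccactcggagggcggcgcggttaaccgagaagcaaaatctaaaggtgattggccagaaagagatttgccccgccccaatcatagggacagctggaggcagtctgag
Slc7a11, chr3:50443652-50443681, minus strand: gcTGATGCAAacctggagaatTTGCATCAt
Trib3, chr2:152344028-152344057, minus strand: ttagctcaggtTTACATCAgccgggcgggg

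The Slc7a11 window shows a pair of matches, at -66 to -59 and -47 to -40, one on each strand, and the Trib3 match lies just after the start, at 15 to 22. The match is at -110 to -103 in Atf3, at -23 to -16 in Asns and at -193 to -186 in Chac1. These letters were not in the windows of Atf4, Ddit3, Sesn2, Psat1 or Phgdh. A match describes the letters and is not a measured binding site. The 10 genes lie apart on the genome, and in the annotation only Ddit3 (chr10:127290793-127296291) overlaps neighbours, namely Mbd6 over 77 bases and Mars1 over 71 bases.

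Per kilobase of counted length, the levels in HA-Tnrc6a inputs spanned from the enzymes down to the transporter. Asns, which makes asparagine, had 162 ± 4.81 CPM per kilobase (mean ± SD, n = 6 libraries over both experiments). Psat1 and Atf4 followed at 98.9 ± 10.9 and 89.3 ± 7.88 CPM per kilobase, ranges that overlapped. Phgdh stood at 48.4 ± 2.42 and Sesn2 at 31.8 ± 4.19 CPM per kilobase. Trib3 and Chac1, at 14.6 ± 4.35 and 13.3 ± 4.23, overlapped each other, and both overlapped Ddit3 at 8.97 ± 0.841. Atf3, at 1.46 ± 0.327, and Slc7a11, at 0.303 ± 0.0508 CPM per kilobase, were the least abundant of the 10.

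The comparison of inputs labelled Upf1 knockout with HA-Tnrc6a inputs addresses whether the programme was higher with Upf1 targeted. The 10 genes did not move together. The transcription factors Atf4, Ddit3 and Atf3 and the feedback and glutathione genes Trib3 and Chac1 were higher, by 1.45-fold to 2.95-fold, whereas Slc7a11, Phgdh, Psat1 and Sesn2 were lower and Asns did not pass. A gene passed at a Benjamini-Hochberg adjusted p under 0.05 over all genes in edgeR's quasi-likelihood test. Thus 5 of 10 genes were higher, where 29.5% of all 19444 genes tested were, and 4 of 10 were lower, where 29.0% of all genes were. Their median log2 fold change was 0.26, beside -0.02 over all genes. In bulk lysates, fewer cells with an RNA and less of it per cell cannot be told apart.

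**Figure D1:**
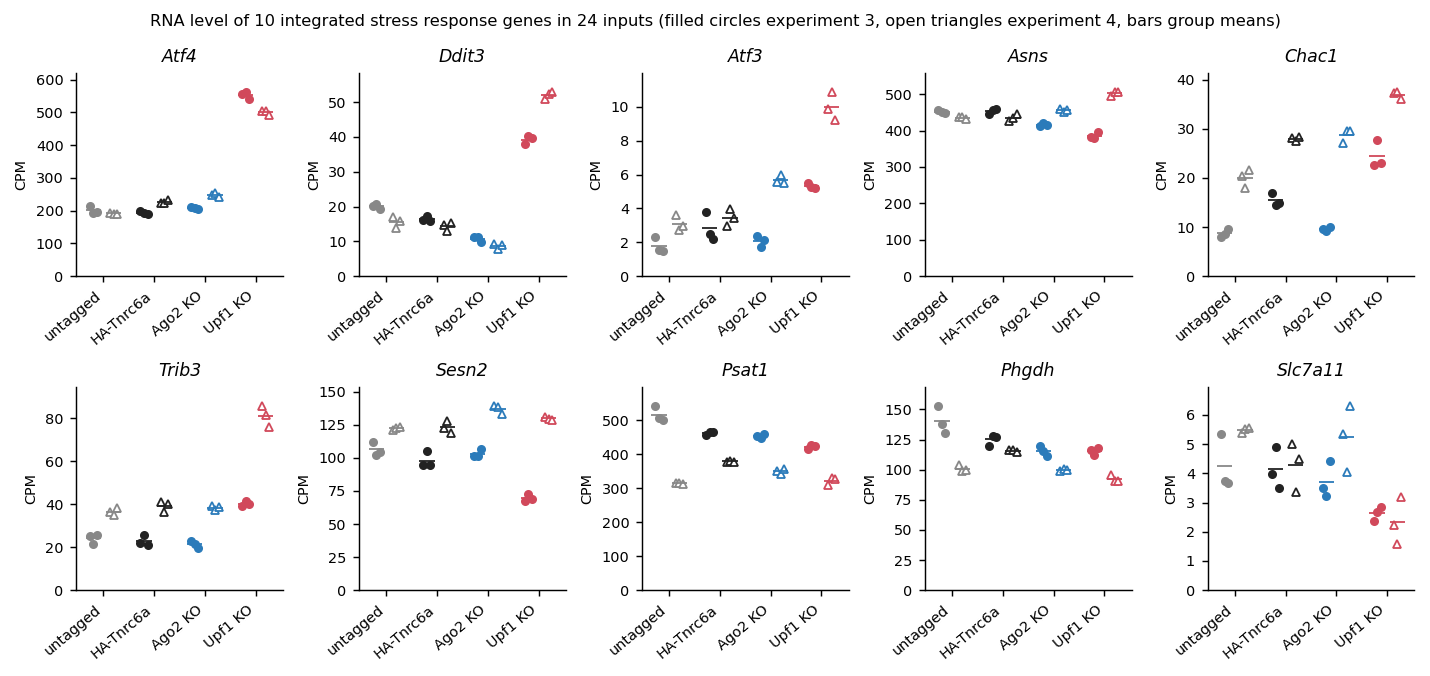
CPM (vertical axes, from 0) of each of the 10 genes in the 24 inputs by genotype, with filled circles for experiment 3, open triangles for experiment 4 and bars at the means of 3 libraries. Atf4 and Ddit3 lie higher in all 6 libraries labelled Upf1 knockout than in the 18 others, while Sesn2 and Asns lie lower there in experiment 3 and not in experiment 4.

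Atf4 (ENSMUSG00000042406, chr15:80255184-80257545) encodes the factor that the pathway turns on through translation. In experiment 3 its level was 198, 193 and 191 CPM in the 3 HA-Tnrc6a inputs and 557, 563 and 540.0 CPM in those labelled Upf1 knockout. In experiment 4 the values were 225, 224 and 233 CPM and 504, 504 and 493 CPM. The groups were far apart in both experiments, and the log2 fold change was 1.33 ± 0.02 (SE), an adjusted p of 5.05e-41 by edgeR. The rise was smaller in experiment 4, with log2 values of 1.504 and 1.15 in experiments 3 and 4, a difference that passed its own test (-0.35 ± 0.04, edgeR adjusted p = 7.37e-08).

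Ddit3 (ENSMUSG00000025408) encodes CHOP, a bZIP factor linked to cell death under lasting stress, and had the largest change of the 10 genes. HA-Tnrc6a inputs had 16.0, 17.3 and 15.8 CPM in experiment 3 and 14.8, 13.0 and 15.2 CPM in experiment 4. Inputs labelled Upf1 knockout had 38.0, 40.1 and 39.6 CPM and 51.0, 52.4 and 53.0 CPM, all above every other input. The log2 fold change was 1.56 ± 0.05 (edgeR adjusted p = 3.41e-31), larger in experiment 4 than in experiment 3 (1.25 and 1.87 in experiments 3 and 4, difference 0.62 ± 0.09, edgeR adjusted p = 2.88e-06). Of the overlapping neighbours, Mars1 was at -0.01 and did not pass, and Mbd6 was at 0.59, so neither rose as much as Ddit3, and how shared reads were counted is not given in the sources used here.

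Atf3 (ENSMUSG00000026628, chr1:191170296-191183333), a bZIP factor induced by many stresses, was near the lower end of detection. It had 3.77, 2.49 and 2.21 CPM in HA-Tnrc6a inputs of experiment 3 and 5.49, 5.26 and 5.18 CPM in those labelled Upf1 knockout. In experiment 4 the levels were 2.97, 3.96 and 3.43 CPM and 9.84, 10.9 and 9.2 CPM. The groups did not overlap in either experiment, and the log2 fold change was 1.23 ± 0.11 (edgeR adjusted p = 9.63e-14). The change in experiment 4 less that in experiment 3 was 0.63 ± 0.22 and did not pass (edgeR adjusted p = 0.0545), but was 0.79 and passed without HA-Tnrc6a input 3 of experiment 3 (0.0181), as it did without HA-Tnrc6a input 2 of experiment 4 (0.0312).

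Trib3 (ENSMUSG00000032715, chr2:152337425-152344060) encodes a pseudokinase that restrains ATF4 and CHOP. Its level was 21.8, 25.5 and 21.1 CPM in HA-Tnrc6a inputs and 39.0, 41.3 and 40.1 CPM in inputs labelled Upf1 knockout of experiment 3. In experiment 4 it was 41.2, 36.2 and 40.2 CPM against 85.8, 81.6 and 75.8 CPM. All libraries labelled Upf1 knockout were above the HA-Tnrc6a libraries of their experiment, and the log2 fold change was 0.93 ± 0.04 (edgeR adjusted p = 1.47e-22). Both groups were higher in experiment 4 than in experiment 3. The change differed between the experiments by 0.25 ± 0.09, which did not pass (edgeR adjusted p = 0.0524), but was 0.31 and passed without HA-Tnrc6a input 3 of experiment 3 (0.0231), and also passed without input 1 of HA-Tnrc6a in experiment 3 or 4 (0.0485 and 0.0354) or replicate 3 of the inputs labelled Upf1 knockout of experiment 4 (0.0243).

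Chac1 (ENSMUSG00000027313, chr2:119351242-119354326), whose product degrades glutathione, rose least among the 5. In experiment 3 it had 16.9, 14.5 and 15.0 CPM in HA-Tnrc6a inputs and 22.7, 27.7 and 23.0 CPM in those labelled Upf1 knockout. In experiment 4 it had 28.2, 27.5 and 28.3 CPM and 37.2, 37.5 and 36.1 CPM. The groups did not overlap within an experiment, and the log2 fold change was 0.53 ± 0.05 (edgeR adjusted p = 9.45e-13).

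Among the metabolic genes, Asns (ENSMUSG00000029752, chr6:7675165-7693209) moved in opposite directions. It fell in experiment 3, from 445, 457 and 460.4 CPM in HA-Tnrc6a inputs to 382, 378 and 396 CPM with the label Upf1 knockout. It rose in experiment 4, from 426, 433 and 445 CPM to 496, 506 and 507 CPM. Neither experiment had overlapping groups, and the log2 values of -0.24 and 0.22 differed by 0.47 ± 0.05 (edgeR adjusted p = 5.94e-11), so the mean over both was -0.01 ± 0.02 (edgeR adjusted p = 0.704). The primitive endoderm sum of the inputs labelled Upf1 knockout likewise lay below that of the HA-Tnrc6a inputs in experiment 3 (2.64 to 3.22 against 6.43 to 7.03) and above it in experiment 4 (10.5 to 11.7 against 6.54 to 7.10), and its part in this result and in that for Sesn2 was not tested.

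Sesn2 (ENSMUSG00000028893, chr4:132492804-132510456), a leucine-binding inhibitor of mTORC1 signalling, also differed between the experiments. It fell in experiment 3 from 94.4, 105 and 94.7 CPM to 67.2, 72.4 and 68.6 CPM. In experiment 4 the HA-Tnrc6a inputs had 123, 128 and 119 CPM and those labelled Upf1 knockout 131, 129.7 and 129 CPM, slightly higher. The log2 values were -0.51 and 0.09, a difference of 0.60 ± 0.06 (edgeR adjusted p = 1.46e-10), and the mean of -0.21 ± 0.03 (edgeR adjusted p = 4.72e-08) rested on experiment 3.

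Psat1 and Phgdh, which encode enzymes of serine synthesis from a glycolytic intermediate, were slightly lower. Psat1 (ENSMUSG00000024640, chr19:15905123-15925059) had 458, 464 and 466 CPM in HA-Tnrc6a inputs against 415, 428 and 424 CPM with the label Upf1 knockout in experiment 3. Its values were 378, 380.4 and 378 CPM against 308, 329.5 and 326 CPM in experiment 4. The groups did not overlap, and the log2 fold change was -0.18 ± 0.02 (edgeR adjusted p = 1.62e-09). Phgdh (ENSMUSG00000053398, chr3:98313171-98339969) had 120.0, 128 and 127 CPM against 117, 112 and 118 CPM in experiment 3, and 116, 116 and 115 CPM against 96.0, 90.3 and 91.0 CPM in experiment 4, for a log2 fold change of -0.22 ± 0.03 (edgeR adjusted p = 2.38e-09). Phgdh has a pseudogene in the mouse genome, and how reads that fit both were counted is not given in the sources used here. The Phgdh fall was larger in experiment 4 (difference -0.18 ± 0.05, edgeR adjusted p = 0.0209), a call that was lost in 4 of 12 fits with 1 library omitted (HA-Tnrc6a input 1 of experiment 3 or of experiment 4, and replicates 2 and 3 of the inputs labelled Upf1 knockout of experiment 4) and with all 48 libraries in 1 fit (0.366).

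Slc7a11 (ENSMUSG00000027737, chr3:50364936-50499087), which encodes the light chain of the cystine-glutamate exchanger, fell most. Its levels were low, with 3.98, 4.92 and 3.5 CPM in HA-Tnrc6a inputs and 2.37, 2.68 and 2.86 CPM in inputs labelled Upf1 knockout of experiment 3. In experiment 4 they were 5.02, 3.37 and 4.51 CPM and 2.25, 1.56 and 3.18 CPM. The groups did not overlap within an experiment, and the log2 fold change was -0.75 ± 0.14 (edgeR adjusted p = 1.47e-05). Of the 5 genes with a promoter match, Atf3, Chac1 and Trib3 were higher here, Slc7a11 was lower and Asns did not pass. Atf4 and Ddit3 were higher without a match in the 300 bases searched, and sites outside these bases were not searched.

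The changes with the label Upf1 knockout thus differed between experiments in 5 of the 10 genes, where 11.6% of all genes had such a difference. The 5 higher and 4 lower genes were the same number in each of the 12 fits with 1 library omitted, HA-Tnrc6a input 3 of experiment 3 included. The counts were not the same in each experiment alone. In experiment 3 Asns also passed as lower (-0.24, edgeR adjusted p = 7.86e-07). In experiment 4 Asns (0.22) and Sesn2 (0.09) passed as higher (edgeR adjusted p = 4.77e-09 and 0.0244).

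**Figure D2:**
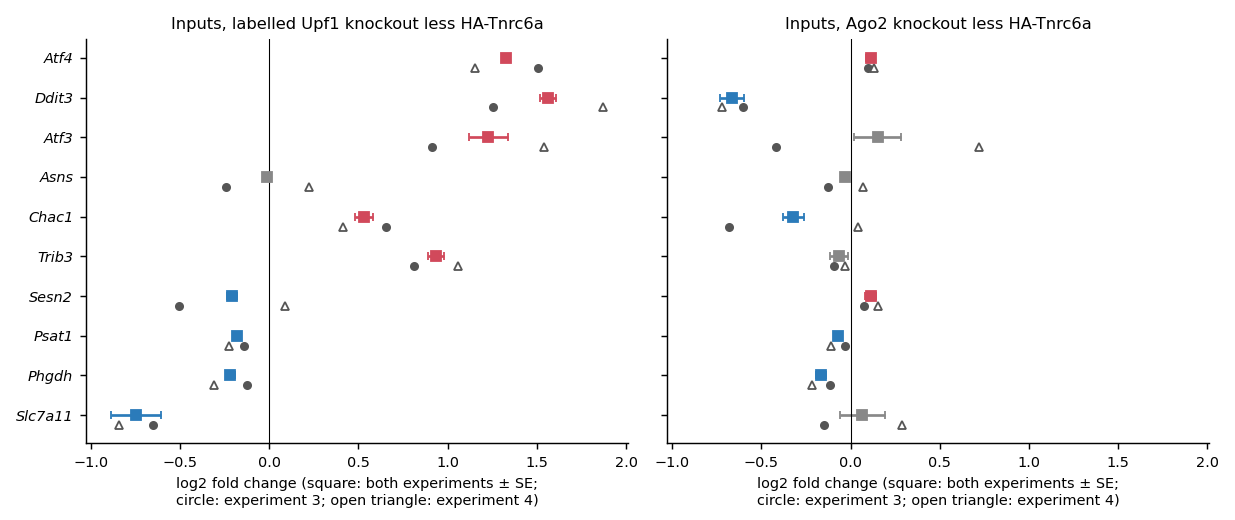
Log2 fold change over HA-Tnrc6a inputs (horizontal axis) of each gene for inputs labelled Upf1 knockout and for Ago2 knockout inputs, with squares for both experiments ± SE (red higher, blue lower, grey not past the threshold), circles for experiment 3 and open triangles for experiment 4. Ddit3 lies at 1.56 on one side and at -0.67 on the other, and Asns and Sesn2 lie on opposite sides of 0 in the 2 experiments with the label Upf1 knockout.

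Other genes of the pathway were followed in lists, whose genes were chosen with earlier results of these data known. Of 13 genes for eIF2 kinases, phosphatase regulators, eIF2 and eIF2B, 8 were higher and 4 lower with the label Upf1 knockout (median log2 fold change 0.20), where 29.5% of all genes were higher and 29.0% lower (median -0.02), shares that stand beside each list of this comparison. Ppp1r15a, the inducible subunit that recruits a phosphatase to eIF2, rose by 1.00 ± 0.04 and Eif2b1, a subunit of the exchange factor eIF2B, by 0.34 ± 0.03 (0.46 in experiment 3 and 0.22 in experiment 4), while Eif2s1, which encodes the phosphorylated subunit of eIF2, was at -0.34 ± 0.02 and the kinase gene Eif2ak1 at -0.28 ± 0.03. The list named bZIP partners of ATF4 also holds Nupr1, which is not a bZIP gene. Of the 6 genes on this list, 4 were higher and none lower, with Nupr1 at 1.67 ± 0.04 and Jdp2 at 1.13 ± 0.07 (0.66 in experiment 3 and 1.61 in experiment 4). Amino acid transporters were higher in 5 of 8 and lower in 1, with Slc1a4 at 0.70 ± 0.05, Slc7a5, a carrier of large neutral amino acids, at 0.64 ± 0.03 and Slc7a3 at -0.42 ± 0.03.

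Metabolic and stress lists, read against the same 29.5% higher and 29.0% lower of all genes, were split in direction. Genes of serine, one-carbon and amino acid synthesis were higher in 7 and lower in 3 of 12, from Pck2, the mitochondrial phosphoenolpyruvate carboxykinase, at 1.03 ± 0.04 and Gpt2 at 0.59 ± 0.03 to Psph at -0.24 ± 0.03 and Cbs, which makes cystathionine, at -0.53 ± 0.05. Aminoacyl-tRNA synthetases were higher in 5 and lower in 4 of 12, and ranged from -0.21 (Eprs) to 0.34 (Nars) on the log2 scale. Of 7 tested other targets of ATF4 and CHOP (8 listed), 3 were higher and 3 lower, with Gdf15 at 0.73 ± 0.08, Ddit4, an inhibitor of mTORC1, at 0.64 ± 0.04 (0.26 in experiment 3 and 1.02 in experiment 4) and Stc2 at -0.45 ± 0.06. The list of ER chaperones and targets of ATF6 or IRE1 also holds the genes of these sensors, Atf6 and Ern1 (for IRE1). Of the 16 genes on it, 6 were higher and 5 lower, with Ern1 at 0.47 ± 0.07 and Sdf2l1 at -0.21 ± 0.05. The list for NRF2, the oxidative stress factor, holds targets, its own gene Nfe2l2 and the gene of its inhibitor, Keap1. Of the 8 genes on this list, 3 were higher and 3 lower. The heme oxygenase gene Hmox1 was at 0.43 ± 0.03 and Txnrd1 at -0.48 ± 0.02 (-0.65 in experiment 3 and -0.31 in experiment 4). The call of Ero1a, 1 of the 3 lower ATF4 and CHOP targets, was lost in 5 of 12 fits with 1 library omitted.

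Of 13 known targets of nonsense-mediated decay, 13 were higher, where 29.5% of all genes were, with a median log2 fold change of 0.79, beside 0.26 for the 10 stress genes and -0.02 over all genes. Zfas1, a noncoding snoRNA host, was at 2.31 ± 0.03 and Gadd45b at 1.46 ± 0.06. Ago2 knockout inputs had 3 of these 13 higher and 3 lower (median 0.02), where 15.7% and 15.2% of all genes were, and the Zfas1 call there was lost in 2 of 12 fits with 1 library omitted (HA-Tnrc6a input 1 and Ago2 knockout input 3 of experiment 3, 0.0683 and 0.0594).

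**Figure D3:**
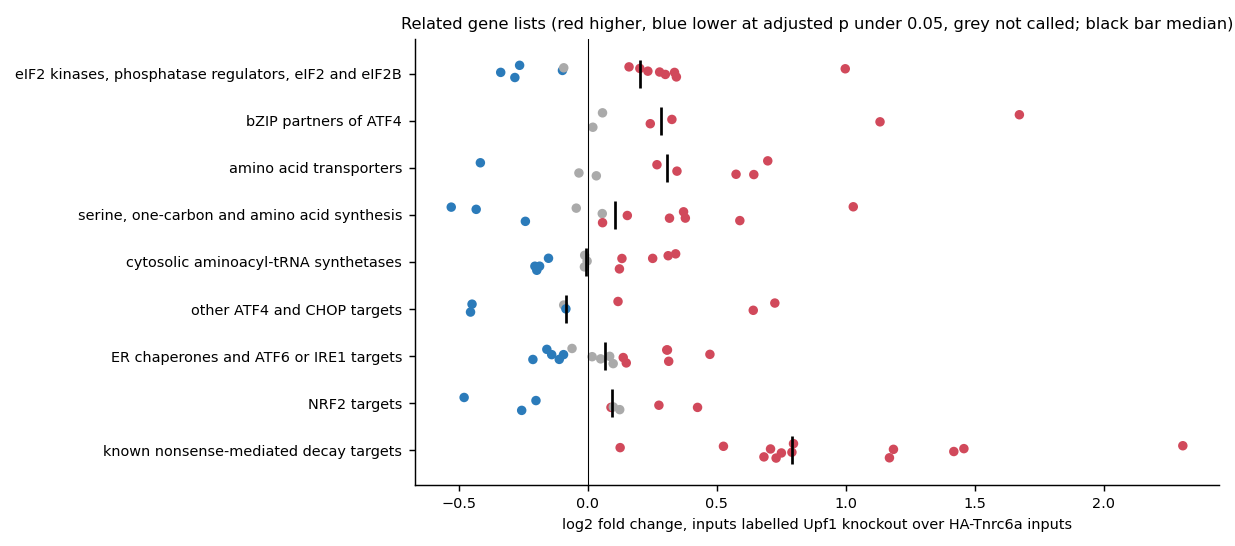
Log2 fold change of each gene of 9 related lists (horizontal axis) in inputs labelled Upf1 knockout over HA-Tnrc6a inputs, with 1 point per gene (red higher, blue lower, grey not past the threshold) and a black bar at each list's median. The 13 known decay targets all lie above 0, while the genes of the synthetase, ER chaperone and NRF2 lists lie on both sides.

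Likeness of pattern was described over the 24 inputs for Atf4 and Ddit3, after each experiment's mean was taken away, among 11118 genes. The genes most like Atf4 were Mrpl49 (Pearson's r of log2 CPM 0.990), Smg5 (0.988) and Itpa (0.988), and those most like Ddit3 were Snhg8 (0.980), Gas5 (0.978) and Slc39a4 (0.977). The 24 points share 4 genotypes, and Spearman's rho ranked other genes first, led by Eif2b1 (0.941) for Atf4 and Mmp28 (0.947) for Ddit3.

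The comparison of Ago2 knockout inputs with HA-Tnrc6a inputs asked for the same genes with another silencing factor missing. Here Ddit3, Chac1, Phgdh and Psat1 were lower and Atf4 and Sesn2 slightly higher. Of all 19641 genes tested, 15.7% were higher and 15.2% lower, so 2 of 10 higher and 4 of 10 lower stand beside those shares. The HA-Tnrc6a inputs serve both this comparison and that with the label Upf1 knockout. The primitive endoderm sum was lower in each Ago2 knockout input (1.59 to 2.06) than in each HA-Tnrc6a input (6.43 to 7.10), and its part in these results was not tested.

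Ddit3 was lower in each experiment, with 11.4, 11.2 and 9.7 CPM in Ago2 knockout inputs of experiment 3 and 9.14, 7.94 and 8.95 CPM in experiment 4, below all the HA-Tnrc6a inputs given above. Its log2 fold change was -0.67 ± 0.07 (edgeR adjusted p = 1.22e-10), and its values in the 2 experiments were -0.60 and -0.72. Chac1 had 9.69, 9.29 and 9.98 CPM in experiment 3, below the HA-Tnrc6a inputs, and 27.2, 29.6 and 29.6 CPM in experiment 4, which overlapped them. Its mean change of -0.32 ± 0.06 (edgeR adjusted p = 1.44e-05) came from experiment 3, where it was -0.68 against 0.04 in experiment 4 (difference 0.72 ± 0.11, edgeR adjusted p = 2.29e-05).

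Atf3 did not pass over both experiments (0.15 ± 0.13, edgeR adjusted p = 0.421). It had 2.39, 1.75 and 2.15 CPM in Ago2 knockout inputs of experiment 3 and 5.59, 5.94 and 5.51 CPM in experiment 4. Its log2 values of -0.42 and 0.72 differed by 1.13 ± 0.26 (edgeR adjusted p = 0.00466), which became 0.0589 without HA-Tnrc6a input 1 of experiment 3. Asns was at -0.13 and 0.07 in the experiments, a difference of 0.19 ± 0.05 (edgeR adjusted p = 0.0082, or 0.406 with all 48 libraries in 1 fit), with a mean of -0.03 ± 0.02 that did not pass. Such differences between experiments passed in 3 of the 10 genes and in 5.94% of all genes.

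The other changes with Ago2 knockout were small. Phgdh was at -0.17 ± 0.03, Psat1 at -0.07 ± 0.02, Atf4 at 0.11 ± 0.02 and Sesn2 at 0.11 ± 0.03 on the log2 scale (edgeR adjusted p = 5.98e-06, 0.0154, 0.000295 and 0.00318). The Psat1 call was lost without Ago2 knockout input 2 of experiment 4 (0.0515) and without HA-Tnrc6a input 3 of experiment 3 (0.0505). In experiment 3 alone none of these 4 passed (0.0884 to 0.691), and with all 48 libraries in 1 fit Atf4, Sesn2 and Psat1 did not (0.132, 0.16 and 0.296). Trib3 (-0.06 ± 0.05) and Slc7a11 (0.07 ± 0.13) did not pass (edgeR adjusted p = 0.367 and 0.741).

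In the related lists, Ago2 knockout inputs had 12 of 16 genes of the ER chaperone and ATF6 or IRE1 list higher and 1 lower (median log2 fold change 0.14). Of all genes 15.7% were higher and 15.2% lower, shares that stand beside each list here. Dnajb9, an ER co-chaperone, was at 0.38 ± 0.06 (0.57 in experiment 3 and 0.19 in experiment 4) and Herpud1 at -0.26 ± 0.06 (-0.38 and -0.14). Amino acid transporters were higher in 2 and lower in 4 of 8, with Slc7a3 at 0.30 ± 0.03 and Slc1a4 and Slc7a5 at -0.28 ± 0.06 and -0.26 ± 0.03. Each of these 3 transporter genes had the other sign in the inputs labelled Upf1 knockout, which share the HA-Tnrc6a inputs as reference. The eIF2 list had 2 of 13 higher, with Ppp1r15a at 0.15 ± 0.04 (0.31 in experiment 3 and 0.003 in experiment 4). The bZIP partner list had 2 of 6 lower, and the synthesis list 1 of 12 higher (Gpt2 at 0.61 ± 0.03) and 3 lower. The synthetases had 1 higher and 1 lower of 12. The other ATF4 and CHOP targets had 2 higher and 2 lower of 7, and the NRF2 list 3 higher and 1 lower of 8. With 1 library omitted, the lower call was lost for Nupr1, of the bZIP partner list, in 8 of 12 fits and for Pck2, of the synthesis list, in 6 of 12. The higher call of Ero1a, an ATF4 and CHOP target, was lost in 8 of 12.

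A direct comparison of inputs labelled Upf1 knockout with Ago2 knockout inputs had 5 of 10 genes higher and 3 lower, where 30.9% and 31.4% of all genes were. Ddit3 differed by 2.22 ± 0.05, a 4.67-fold higher level, Atf4 by 1.21 ± 0.02, Atf3 by 1.07 ± 0.10, Trib3 by 0.99 ± 0.04 and Chac1 by 0.85 ± 0.05. Slc7a11 (-0.82 ± 0.14), Sesn2 (-0.32 ± 0.03) and Psat1 (-0.11 ± 0.02) were lower, with edgeR adjusted p of 9.11e-05 or less for all 8. Asns (0.02 ± 0.02) and Phgdh (-0.05 ± 0.03) did not pass. Sesn2 was at -0.57 in experiment 3 and at -0.06 in experiment 4, where it did not pass (edgeR adjusted p = 0.119), and Chac1 was at 1.34 and 0.38. Asns passed as lower in experiment 3 (-0.11, edgeR adjusted p = 0.0238) and as higher in experiment 4 (0.16, 7.19e-07). Phgdh passed as lower in experiment 4 alone (-0.09, 0.0329). For this comparison differences between the experiments were not tested.

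Averaged over both experiments, untagged inputs differed from HA-Tnrc6a inputs in fewer of these genes. Of the 10, 1 was higher (Ddit3) and 2 were lower (Chac1 and Atf4), beside 7.67% and 7.74% of all genes. Chac1 had 8.04, 8.55 and 9.67 CPM in untagged inputs of experiment 3 and 20.4, 18.03 and 21.6 CPM in experiment 4, below the HA-Tnrc6a inputs of the same experiment. Its log2 difference was -0.66 ± 0.07 (edgeR adjusted p = 2.89e-08), beside 0.53 for inputs labelled Upf1 knockout. Ddit3 (0.20 ± 0.06, edgeR adjusted p = 0.0279) and Atf4 (-0.10 ± 0.03, edgeR adjusted p = 0.0321) were close to the threshold. Leaving out a single library lost the Ddit3 call in 6 of 12 fits and the Atf4 call in 9 of 12. For Ddit3 these were HA-Tnrc6a inputs 1 and 3 and untagged input 2 of experiment 3, and HA-Tnrc6a input 2 and untagged inputs 1 and 3 of experiment 4 (0.0562 to 0.0896). For Atf4 they were all but HA-Tnrc6a input 3 and untagged input 1 of experiment 3 and untagged input 1 of experiment 4 (0.0531 to 0.0916). Atf3 (-0.41 ± 0.15) did not pass (edgeR adjusted p = 0.0635), but was at -0.49 and passed as lower without HA-Tnrc6a input 3 of experiment 3 (0.0374), and at -0.52 without untagged input 1 of that experiment (0.0126). Psat1 (-0.06 ± 0.03, edgeR adjusted p = 0.215) also passed without the latter (0.014). In experiment 4 alone Psat1, Phgdh and Atf4 passed as lower, at -0.27, -0.20 and -0.25 (edgeR adjusted p = 6.04e-10, 2.38e-05 and 2.16e-08). In experiment 3 alone they were at 0.15, 0.16 and 0.05 and did not pass. With the label Upf1 knockout, Psat1 and Phgdh were at -0.22 and -0.31 in experiment 4. For untagged inputs a difference between the experiments was not tested.

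Recovery with HA-Tnrc6a was the log2 IP-over-input ratio in HA-Tnrc6a cells less that in untagged cells, the untagged cells giving what the beads hold without a tag. Chac1, Sesn2, Atf3, Trib3 and Atf4 were enriched, by 2.84-fold to 9.11-fold, the serine and asparagine enzymes Phgdh, Psat1 and Asns were depleted, and Ddit3 and Slc7a11 did not pass. Of all 19993 genes tested 29.8% were higher and 32.2% lower, beside 5 and 3 of these 10. The 5 enriched genes each passed 2-fold, beside 3294 of all 19993 genes that passed as higher by at least 2-fold. Over all genes the median was -0.10, and over the 10 genes 0.84. Tnrc6a RNA, checked as that of the tagged protein, was enriched by 7.77 ± 0.18 (edgeR adjusted p = 3.34e-18).

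Chac1 had 118, 108 and 90.9 CPM in HA-Tnrc6a IPs of experiment 3 and 7.32, 5.76 and 7.05 CPM in untagged IPs. In experiment 4 it had 207, 167 and 151 CPM and 13.6, 13.0 and 14.4 CPM. The IP groups were far apart, and relative to input the enrichment was 3.19 ± 0.12 (edgeR adjusted p = 3.28e-22). Sesn2 had 809, 745 and 646 CPM in HA-Tnrc6a IPs and 78.5, 82.9 and 76.6 CPM in untagged IPs of experiment 3. In experiment 4 it had 779, 671 and 632 CPM and 84.8, 93.0 and 93.5 CPM, again without overlap. Its enrichment was 3.14 ± 0.08 (edgeR adjusted p = 1.74e-26).

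Atf3 was enriched by 2.61 ± 0.21 (edgeR adjusted p = 3.6e-13), with 29.0, 22.0 and 18.3 CPM in HA-Tnrc6a IPs and 3.77, 3.07 and 2.73 CPM in untagged IPs of experiment 3. Atf4 was enriched by 1.51 ± 0.07 (edgeR adjusted p = 2.13e-19), with 495, 461 and 442 CPM against 195, 185 and 184 CPM in experiment 3. In experiment 4 Atf4 had 590.4, 484 and 478 CPM against 139, 144 and 140.3 CPM. Trib3 was enriched by 1.53 ± 0.09 (edgeR adjusted p = 3.94e-16). Tagged and untagged IPs overlapped for none of these 3 genes in either experiment.

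Ddit3 did not pass. It had 14.5, 17.0 and 17.5 CPM in HA-Tnrc6a IPs of experiment 3 against 22.8, 22.0 and 22.5 CPM in untagged IPs, and 10.4, 9.73 and 9.51 CPM against 12.6, 11.7 and 14.2 CPM in experiment 4. The tagged IPs lay below the untagged ones in both experiments, and relative to input the value was -0.20 ± 0.10 (edgeR adjusted p = 0.0806). Its overlapping neighbour Mbd6 was at 2.41. The Ddit3 value passed as lower without HA-Tnrc6a input 2, untagged input 1 or untagged IP 2 of experiment 4 (edgeR adjusted p = 0.0468, 0.0488 and 0.0463), and with library totals, with all 48 libraries in 1 fit or with IPs alone (0.00303, 0.0375 and 0.000198). Phgdh was at -0.68 ± 0.08, Psat1 at -0.50 ± 0.07 and Asns at -0.35 ± 0.06 (edgeR adjusted p = 2.98e-09, 6.25e-08 and 1.03e-05), while Slc7a11 was at 0.17 ± 0.24 (edgeR adjusted p = 0.542).

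**Figure D4:**
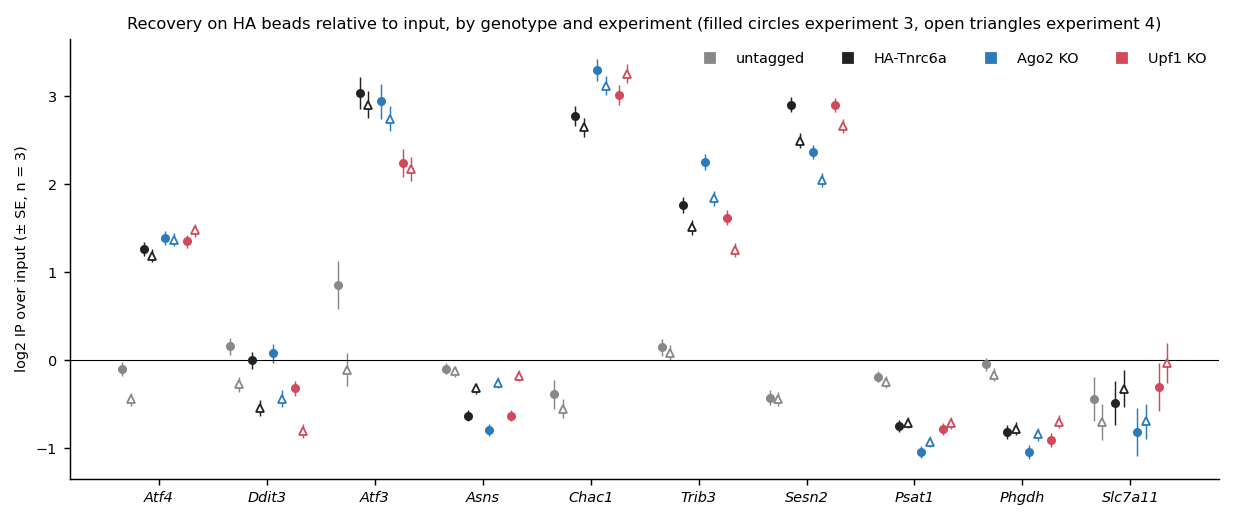
Log2 ratio of IP over input (vertical axis, ± SE, 3 libraries per fraction) for the 10 genes by genotype, with filled circles for experiment 3 and open triangles for experiment 4. The tagged genotypes lie above 1 for Atf4, Atf3, Chac1, Trib3 and Sesn2 and below 0 for Psat1 and Phgdh, while untagged cells lie near or below 0 apart from Atf3 in experiment 3.

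Of the 5 enriched genes, Atf4, Atf3, Chac1 and Trib3 were also higher in inputs labelled Upf1 knockout, and Ddit3, the gene with the largest rise, was not enriched. Sesn2, enriched by 3.14 beside 3.19 for Chac1, was lower there in experiment 3. HA-Tnrc6a inputs enter both comparisons, so these values are set side by side and no relation between them was tested.

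Recovery in Ago2 knockout cells, again IP over input and against HA-Tnrc6a cells, changed for 4 of the 10 genes. Chac1 (0.49 ± 0.11) and Trib3 (0.41 ± 0.09) were recovered more, and Sesn2 (-0.50 ± 0.08) and Psat1 (-0.26 ± 0.07) less (edgeR adjusted p = 0.00176, 0.000466, 2.07e-05 and 0.0042). Over all genes 9.09% were higher and 12.3% lower. Tnrc6a RNA itself was higher in Ago2 knockout inputs than in HA-Tnrc6a inputs (0.51 ± 0.03, edgeR adjusted p = 1.65e-17). It did not pass in inputs labelled Upf1 knockout (-0.03 ± 0.03, edgeR adjusted p = 0.488). Its own recovery in Ago2 knockout cells did not pass (0.11 ± 0.16, edgeR adjusted p = 0.716), and the part of its level in these results was not tested. In experiment 3 alone Chac1 (0.0664) and Psat1 (0.0989) did not pass. Atf4 (0.15 ± 0.07, edgeR adjusted p = 0.135) passed as higher without HA-Tnrc6a IP 1 of experiment 4 (0.20, adjusted p = 0.015), and Phgdh (-0.15 ± 0.07, edgeR adjusted p = 0.137) as lower without HA-Tnrc6a IP 1 (0.0424) or Ago2 knockout IP 2 (0.0442) of experiment 3. Sesn2 had 578, 459 and 555 CPM in Ago2 knockout IPs of experiment 3 and 562, 534 and 600.2 CPM in experiment 4, below every HA-Tnrc6a IP of the same experiment. The log2 IP-over-input ratio of Sesn2 was 2.90 and 2.49 in HA-Tnrc6a cells and 2.37 and 2.05 in Ago2 knockout cells (experiments 3 and 4), far above the -0.42 and -0.44 of untagged cells. For Trib3 the ratios were 1.76 and 1.51 in HA-Tnrc6a cells and 2.25 and 1.84 in Ago2 knockout cells.

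In cells labelled Upf1 knockout, recovery was higher for Chac1 (0.48 ± 0.10, edgeR adjusted p = 0.00324) and lower for Atf3 (-0.71 ± 0.18, edgeR adjusted p = 0.0201), 1 gene each way beside 2.92% and 1.57% of all genes. Atf3 had 27.3, 23.1 and 25.2 CPM in the IPs labelled Upf1 knockout of experiment 3 and 57.7, 39.9 and 36.9 CPM in experiment 4, which overlapped the HA-Tnrc6a IPs of experiment 3 and lay above those of experiment 4, so the lower ratio stands beside a higher input and not a lower IP level. The Atf3 call was lost without HA-Tnrc6a input 2 (0.0522) or 3 (0.0563) of experiment 3 and in each experiment alone, and its log2 value was 0.48 when IPs were compared without inputs. The share of higher genes among all that passed was 65.1% with TMM scaling and 22.4% with library totals, so a direction over all genes depends on the scaling. Chac1 did not pass in experiment 3 alone (0.564). Atf4 rose in the IPs as in the inputs, with 1466, 1295 and 1472 CPM in experiment 3 and 1641, 1338 and 1193 CPM in experiment 4, and its ratio differed by 0.24 ± 0.08 (edgeR adjusted p = 0.0845, or 0.0301 without replicate 3 of the IPs labelled Upf1 knockout of experiment 4). For Ddit3 the ratio differed by -0.24 ± 0.08 (edgeR adjusted p = 0.088), a value that passed with library totals, the authors' scaling factors, DESeq2 and all 48 libraries in 1 fit (adjusted p = 0.017, 0.0412, 0.0395 and 0.0483), and without HA-Tnrc6a IP 1 or replicate 2 of the IPs labelled Upf1 knockout of experiment 3, or without HA-Tnrc6a input 3 or replicate 1 of the IPs labelled Upf1 knockout of experiment 4 (0.0176 to 0.0434). The IPs labelled Upf1 knockout had 30.8, 33.4 and 30.3 CPM and 32.1, 29.9 and 27.7 CPM of Ddit3, above all HA-Tnrc6a IPs.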

How the data were processed

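RNA of 48 libraries was measured by RIP-seq with a stranded total RNA kit, per the labels. The submitters' processing notes name bcl2fastq 2.20, STAR 2.7.3a and the builds GRCm38 and mm10, and how reads were assigned to genes is not given in the sources used here. The authors deposited 1 table with a raw count per gene and library. Its columns headed RPKM hold a scaled signal, the authors' count times 1 factor per library and not divided by length, and served only as an alternative scaling. The deposited gene length column was used for values per kilobase. Column numbers 1 to 3 were taken as experiment 3 and 4 to 6 as replicates 1 to 3 of experiment 4, which is inferred from the numbering. The table named 16427 genes, and reference tables named a further 3725. Promoters and gene positions are from RefSeq, GRCm38.p6.

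Counts were analysed with edgeR 4.0.16 in R 4.3.3 (TMM scaling, filterByExpr with a minimum count of 10, robust quasi-likelihood F-test, two-sided). Each fit held only the groups it compares, effects were averaged over both experiments with equal weight, and p-values were adjusted over all genes tested. Recovery is the IP-over-input difference between genotypes, and the interaction is the effect in experiment 4 less that in experiment 3. The script was tested on simulated data. Named are the 10 genes, Upf1, Ago2 and Tnrc6a as checks, and up to 2 genes per direction and list that passed 0.05, kept their sign in each experiment and averaged a log2 CPM of 3 or more. The 10 genes and all lists were chosen with earlier results of these data known. The markers, Mars1, Mbd6 and the genes like Atf4 and Ddit3 are descriptions. Replicate numbers were not taken as pairing the libraries in the main fits. Some pairs of the same number and fraction from different genotypes deviated together and others did not, which does not settle that choice. Pairing of an input with the IP of the same number was not checked, and the recovery tests treated them as independent. Counting intervals are not given, since reads carry no molecular identifiers and cannot be taken as separate molecules. Alternatives were other scalings, count minimums, DESeq2 1.42.0, each experiment alone, a replicate block and leaving out each library.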

Additional observations from a re-analysis of the deposited data

Results flagged for a closer look

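In 8 cases the effect of a knockout label on a gene's input level differed between experiments 3 and 4 by the interaction test (edgeR quasi-likelihood, adjusted over all genes, 3 libraries per group). With the label Upf1 knockout, the log2 change in experiment 4 less that in experiment 3 was 0.62 for Ddit3 (adjusted p = 2.88e-06), 0.60 for Sesn2 (1.46e-10), 0.47 for Asns (5.94e-11), -0.35 for Atf4 (7.37e-08) and -0.18 for Phgdh (0.0209). For Asns and Sesn2 the sign of the change itself differed between the experiments. With Ago2 knockout the difference was 1.13 for Atf3 (0.00466), 0.72 for Chac1 (2.29e-05) and 0.19 for Asns (0.0082). With all 48 libraries in 1 fit, Phgdh with the label Upf1 knockout (0.366) and Asns with Ago2 knockout (0.406) did not pass.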

How the results depend on the processing

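Depth limits Atf3 and Slc7a11 most, and 3 libraries per group set the standard errors. The rises of Atf4, Ddit3, Atf3, Trib3 and Chac1 and the falls of Slc7a11, Phgdh and Psat1 with the label Upf1 knockout passed under each alternative run except, for those under 2-fold, the fold minimum. The causes of the changes below were not tested, apart from the fold minimum, which removes smaller changes by construction.

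With a change of at least 2-fold required, inputs labelled Upf1 knockout had 3 of the 10 genes higher and 0 lower. Of all 19444 genes tested 424 were higher and 602 lower (1026 in all). Ago2 knockout inputs had 0 and 0, beside 110 and 245 of 19641 (355 in all). Upf1 knockout against Ago2 knockout had 3 and 0, beside 776 and 684 of 19419 (1460 in all). Untagged inputs had 0 and 0, beside 22 and 178 of 19407 (200 in all). The interactions had 0 genes for Upf1 (287 in all) and 1 for Ago2 (179). Enrichment had 5 higher and 0 lower, beside 3294 and 989 of 19993 (4283 in all). Recovery had 0 and 0 for both knockouts, beside 86 and 138 for Ago2 (224 in all) and 13 and 21 for Upf1 (34 in all).

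In experiment 3 alone, Ago2 knockout inputs had 0 of the 10 genes higher, beside 1868 of all genes (3382 either way). Untagged inputs had 0 higher and 1 lower, beside 223 and 429 (652 either way). Recovery in Ago2 knockout had 1 higher and 1 lower, beside 634 and 989 (1623 either way). Recovery with the label Upf1 knockout had 0 and 0, beside 17 and 145 (162 either way). There Asns in Upf1 knockout against Ago2 knockout was at -0.11 and Atf4 in untagged inputs at 0.048. In experiment 4 alone, Ago2 knockout inputs had 4 higher, beside 2806 of all genes. Untagged inputs had 0 higher and 4 lower, beside 2163 and 2030. Recovery with the label Upf1 knockout had 0 lower, beside 95 (384 either way). There Asns was at 0.22 and Sesn2 at 0.089 with the label Upf1 knockout, and Asns at 0.068 and Chac1 at 0.042 with Ago2 knockout.

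With all 48 libraries in 1 fit, Ago2 knockout inputs had 0 higher, beside 1998 of all genes (3902 either way). Untagged inputs there had 1 lower, beside 1058 (1937 either way). The interactions had 717 genes for Upf1 and 301 for Ago2, and recovery with the label Upf1 knockout had 2 lower, beside 447 of all genes. Library totals gave 0 higher in untagged inputs, beside 1166. Recovery with the label Upf1 knockout had 2 lower with library totals, the authors' scaling factors or DESeq2, beside 778, 461 and 454.

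IPs without inputs gave 4 lower in Ago2 knockout, beside 3576 of all genes (7482 either way), with Ddit3 at -0.54. With the label Upf1 knockout they gave 5 higher and 3 lower, beside 4370 and 4435 (8805 either way). Ddit3 was then at 1.29, Trib3 at 0.75, Atf3 at 0.48, Psat1 at -0.19, Phgdh at -0.21 and Slc7a11 at -0.50.

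Libraries of the same replicate number, fraction and experiment but different genotypes correlated by 0.08 on average (72 pairs, from -0.25 to 0.63, 26 over 0.1). For other numbers the mean was -0.04. Some pairs of the same number thus deviated together and others did not. The main fits did not take the numbers as pairing, a choice that these values do not settle. For recovery with the label Upf1 knockout, the replicate block gave 952 genes higher and 448 lower, beside 583 and 313 without it. Pairing of an input with the IP of the same number was not checked, and the replicate block, set within each fraction, does not model it. The replicate block gave 2 higher among 1400 genes for recovery with the label Upf1 knockout, against 1 without it, Atf4 being added (0.24, adjusted p = 0.012), and Atf3 passed as lower in untagged inputs (0.0464).

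Leaving out 1 library at a time, untagged inputs had 0 to 1 higher and 1 to 4 lower, with 2348 to 4151 genes in all. Recovery with the label Upf1 knockout had 1 to 2 higher, 0 to 2 lower and 591 to 957 genes in all. The interactions of Atf3 and Trib3 with the label Upf1 knockout passed in 2 and 4 of 12 such fits, with adjusted p of 0.0181 to 0.0485, and also with the replicate block (0.0403 and 0.0278) and a minimum count of 30 (0.0463 and 0.0429).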
